A study of Gallus gallus with 6 samples.

Results

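MicroRNAs of chicken (Gallus gallus, Xinghua breed) leg muscle were compared across hatching, between P1, which is 1 day after hatching, and E16, which is embryonic day 16. The comparison rests on 4 of the 6 small RNA libraries of the series, the 2 titled P1 and the 2 titled E16. The other 2, of embryonic day 11 (E11), were not compared. They entered the filter on low counts, the scaling and the estimate of the spread between libraries. All 6 came from leg muscle of birds labelled female, with no treatment or genotype named, and all carry a description of RNase R treated RNA without ribosomal RNA. The labels also name a TruSeq RNA kit. These descriptions do not go with a miRNA library, and what they mean here could not be settled. The labels do not say that the 2 libraries of an age came from separate birds, so p-values below measure only the spread between these libraries, which may be technical. Whole leg muscle was used, and in such bulk RNA fewer cells of a type and less RNA per cell cannot be told apart.

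MicroRNAs are short RNAs that guide Argonaute proteins to partly complementary sites in messenger RNAs and lower their output. Each is cut from a hairpin precursor, whose 5p and 3p arms can both yield a mature RNA, although one arm usually dominates. In vertebrate muscle a small group, the myomiRs miR-1, miR-133, miR-206 and miR-499, is transcribed with the muscle programme. miR-1 and miR-206 favour differentiation of myoblasts, miR-133 acts on their proliferation, and miR-499 lies in an intron of a slow myosin heavy chain gene. Hatching falls in the period when fibres formed in the embryo begin to enlarge rather than multiply.

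The deposited values were used as counts, and totals were 2641042 and 2201359 at P1 and 1202481 and 948589 at E16. The series listed 846 entries, of which 534 had a miRNA name and 312 a provisional identifier, and 775 were listed in at least 1 of the 4 libraries. Levels are given as TMM-normalized CPM, read counts on a common library size, with a scaling that sets most entries level between libraries. After a filter on low counts, 289 entries were tested, 199 of them named. The filter set a minimum level over all libraries, so a rare entry could pass on the libraries of 1 age alone. A difference toward that age is then favoured in advance, which applies to rare miRNAs in both directions below. Of the entries listed in only 1 age, 40 were in both P1 libraries and 12 in both E16 libraries. None of these exceeded 6 counts in a library, so none is taken as present at only 1 age.

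No entry passed the Benjamini-Hochberg adjusted threshold of 0.05 in edgeR, where the smallest adjusted p was 0.224 (0% of 289). DESeq2 on the same counts called 2, both higher at P1 (0.692% of 289). At an unadjusted p under 0.05 edgeR gave 37 entries (12.8%) and DESeq2 34. Of the 37, 25 were higher at P1 (8.65%) and 12 were lower (4.15%). In all 37 the P1 libraries did not overlap with the E16 libraries. Picking by p-value from the same libraries nearly requires this, so it adds no evidence. Across all 289, both P1 libraries lay above both E16 libraries for 76 entries (26.3%) and below for 72 (24.9%). A median standard error of 0.55 on the log2 scale, and a median 95% interval reaching 1.28 to either side, set what these libraries could resolve. The miRNAs below are therefore described by their values, and those with an unadjusted p under 0.05 are named as such.

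The split between higher and lower depended on the scaling. When the same edgeR fit was scaled to plain library totals, a setting added after the data were seen, 12 entries were higher at P1 and 29 lower at an unadjusted p under 0.05. The median log2 fold change of all entries was then -0.21, against 0.09 with TMM scaling. limma-trend on values scaled to totals gave 9 higher and 24 lower with a median of -0.22, while RLE scaling gave 25 higher and 14 lower. None of the 29 named miRNAs with an unadjusted p under 0.05 in the TMM fit changed direction under these settings. They were picked by p-value in that fit, and the one nearest 0, miR-27b-3p, was at 0.82. Unchanged directions were therefore likely beforehand and say little about the scaling. For a log2 fold change near 0, the direction is not settled by these data. Overlap of levels was judged in TMM-normalized CPM and can change with the scaling as well.

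**Figure D1:**
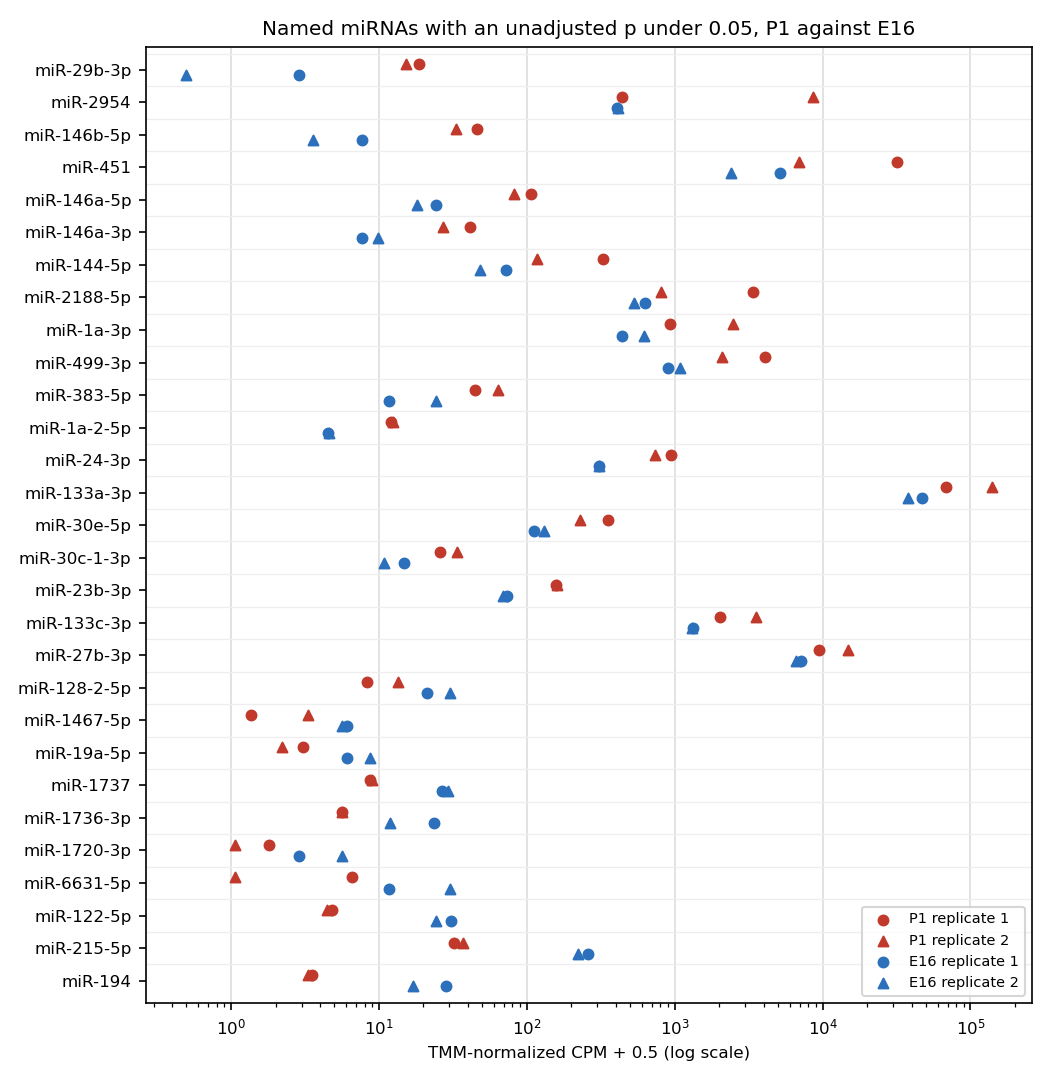
The 29 named miRNAs with an unadjusted p under 0.05, with CPM + 0.5 on a log axis and 1 point for each P1 and E16 library. Rows were picked by p-value from these libraries, which nearly requires that the ages lie apart. In every row the 2 P1 points lie to one side of the 2 E16 points, 19 times to the right and 10 times to the left. The 2 P1 points of miR-2954, of miR-451 and of miR-6631-5p are far from each other.

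Several abundant miRNAs differed within an age as much as between the ages. miR-2954, which is encoded on the chicken Z chromosome and is known to be higher in males, had 437 and 8672 CPM at P1, against 405 and 415 CPM at E16. P1 replicate 1 was at the E16 level and P1 replicate 2, which is labelled female, stood far above it. The E11 libraries had 307 and 313 CPM. The log2 fold change of miR-2954 between P1 and E16 was 3.47 (SE 1.15) with all libraries and 0.10 without P1 replicate 2. miR-203a, a miRNA of skin epithelium, had 971 and 7.91 CPM at P1 and 205 and 37.2 CPM at E16, so the ages overlapped. Of 131 entries with a mean of at least 100 CPM, 23 differed by over 2-fold between the P1 libraries and 10 between the E16 libraries. Without P1 replicate 1 there were 26 entries with an unadjusted p under 0.05 and edgeR called 1, miR-2954; without P1 replicate 2 there were 29 and it called none.

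**Figure D2:**
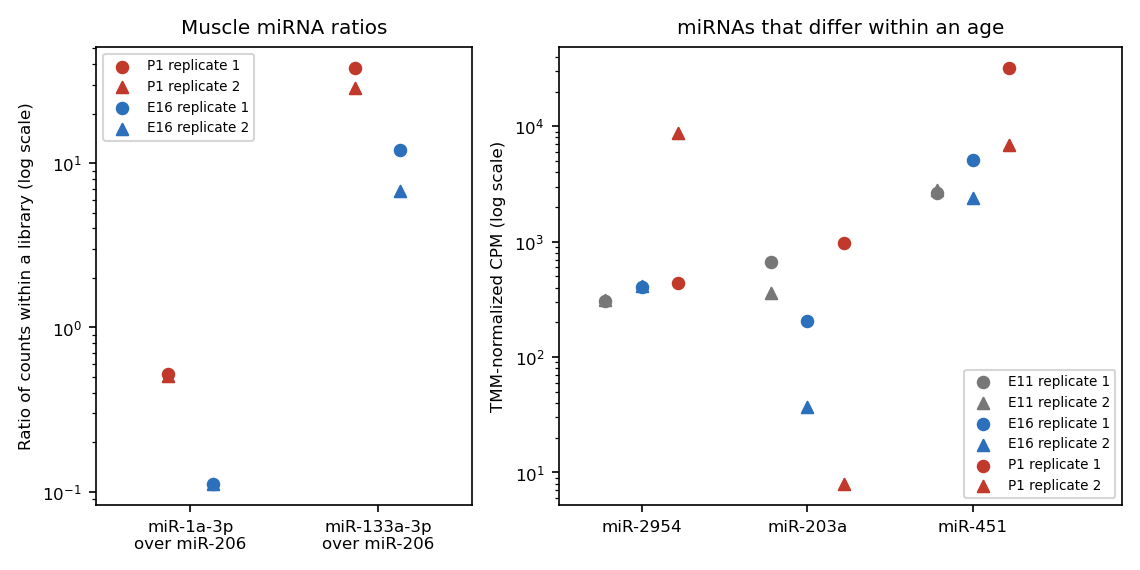
Left, counts of miR-1a-3p and miR-133a-3p divided by those of miR-206 in the same library, on a log axis, with 1 point per library for P1 and E16. Right, CPM of miR-2954, miR-203a and miR-451 in the libraries of each age, on a log axis. The miR-1a-3p ratio is 0.52 and 0.51 at P1 and 0.11 in both E16 libraries, while miR-2954 is at 8672 CPM in 1 P1 library and at most 437 CPM in the other 5.

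Muscle miRNAs, summed as a list, took a larger part of the small RNA at P1. The muscle list held the families miR-1, miR-133 and miR-499 and the single miR-206, since no entry was named miR-208 or miR-486. It took 12.1% and 15.4% of all counts in the P1 libraries and 7.37% and 7.92% in the E16 libraries. The means were 13.7% ± 2.35 at P1 and 7.64% ± 0.391 at E16 (SD, n = 2 each), and the ages did not overlap. An exact two-sided permutation test gave p = 0.333, the smallest p that 2 libraries against 2 allow. Most counts of the list were miR-133a-3p and miR-499-5p, so the sum mainly describes these. miR-133a-3p had 158497 and 246285 counts at P1 and 59223 and 36357 at E16. For miR-499-5p the counts were 136718 and 63858 at P1 and 19008 and 28909 at E16. Of the 13 listed members 10 were tested, and their median log2 fold change was 1.09, against 0.09 for all 289 entries. In TMM-normalized CPM both P1 libraries were above both E16 libraries for 7 of the 10 (26.3% of all entries), and none was below in both. Among these 7, miR-499-5p and miR-133b overlapped between the ages as shares of all counts. Of the 10, 5 had an unadjusted p under 0.05 (8.65% of all entries in this direction).

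miR-133a-3p was the most abundant named muscle miRNA. It had 68326 and 139213 CPM at P1 and 47332 and 37543 CPM at E16. Both P1 values were above both E16 values, and replicate 2 was well above replicate 1 at P1. The log2 fold change was 1.29 (SE 0.40, edgeR Benjamini-Hochberg adjusted p = 0.329), and 0.69 without P1 replicate 2. miR-133c-3p, which differs little from it in sequence so that reads may be split between them, had 2028 and 3571 CPM at P1 and 1324 and 1299 CPM at E16 (log2 fold change 1.09, SE 0.45). The passenger arm miR-133a-5p had 1207 and 2943 CPM at P1 and 1535 and 1432 CPM at E16, so the ages overlapped for it (log2 fold change 0.48, or -0.29 without P1 replicate 2).

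miR-1a-3p, the mature miR-1 of chicken, had 932 and 2487 CPM at P1 and 440 and 621 CPM at E16. Both P1 libraries were higher, replicate 2 more so, and the log2 fold change was 1.69 (SE 0.59), or 0.81 without P1 replicate 2. The 5p arms of the hairpins that produce it were rare. miR-1a-2-5p had 11.6 and 11.9 CPM at P1 and 4.0 and 4.1 CPM at E16 (1.51, SE 0.54), from 5 and 4 counts at E16. Of the P1 and E16 libraries only those at P1 reached the filter's level for it. miR-1a-1-5p had 15.1 and 19.2 CPM at P1 and 16.8 and 14.5 CPM at E16, and its ages overlapped. miR-1b-3p was listed at 10 and 15 counts at P1 and at 0 and 3 counts at E16, below the filter.

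Both arms of miR-499 were higher at P1, with replicate 1 on top where miR-133a-3p and miR-1a-3p had replicate 2 on top. miR-499-5p had 58937 and 36096 CPM at P1 and 15191 and 29852 CPM at E16 (log2 fold change 1.08, SE 0.49, unadjusted p = 0.0636 in edgeR). In TMM-normalized CPM the ages did not overlap, although the lower P1 value was near the higher E16 value. As shares of all counts the ages overlapped, with 63858 of 2201359 in P1 replicate 2 and 28909 of 948589 in E16 replicate 2. The log2 fold change of miR-499-5p was 0.59 without P1 replicate 1. miR-499-3p had 4094 and 2082 CPM at P1 and 905 and 1079 CPM at E16 (1.64, SE 0.50), or 0.99 without P1 replicate 1.

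miR-206, which unlike miR-1 is largely limited to skeletal muscle, did not follow the others. It had 1799 and 4873 CPM at P1 and 3948 and 5572 CPM at E16, and the ages overlapped (log2 fold change -0.51, SE 0.50). Without P1 replicate 1 the value was -0.05 and without P1 replicate 2 it was -1.40. Its genomic neighbour miR-133b had 156 and 265 CPM at P1 and 91.1 and 147 CPM at E16 (0.82, SE 0.66). Ratios inside a library do not depend on scaling. The counts of miR-1a-3p were 0.52 and 0.51 of those of miR-206 at P1, and 0.11 in both E16 libraries. miR-133a-3p counts were 38 and 28.6 times those of miR-206 at P1 and 12 and 6.74 times at E16. miR-1 and miR-206 are closely similar in sequence, so the authors' counting could have moved reads between them. The miR-499-5p ratio to miR-206 was 32.8 and 7.41 at P1 and 3.85 and 5.36 at E16, with no overlap but a wide gap between the P1 libraries.

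**Figure D3:**
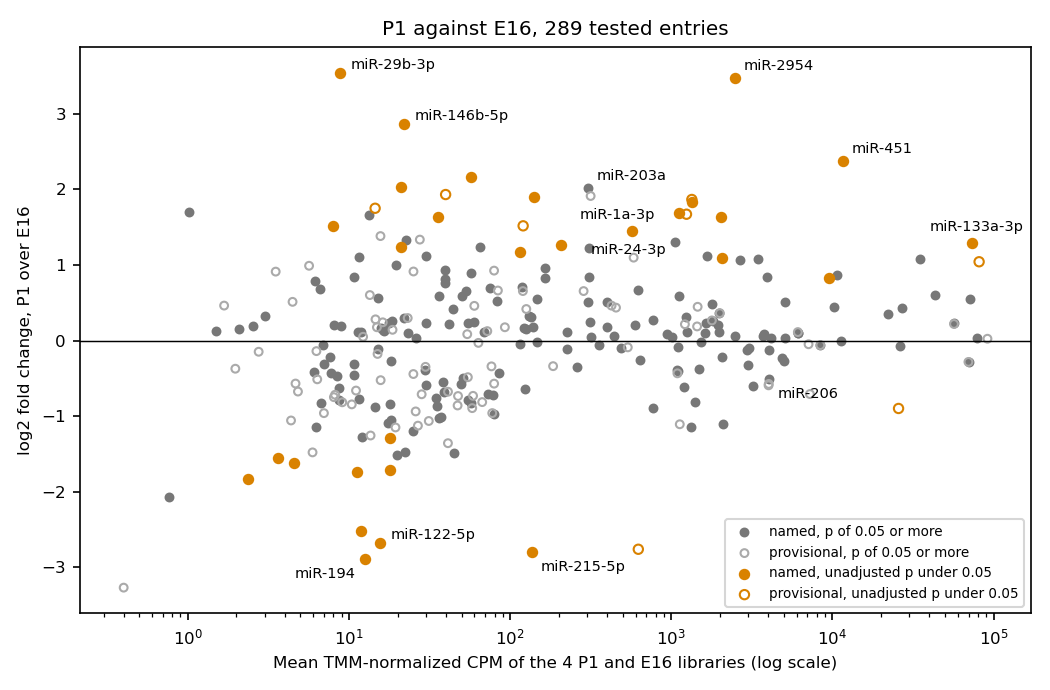
log2 fold change of P1 over E16 for the 289 tested entries, plotted against the mean CPM of the 4 libraries on a log axis, with filled points for named and open points for provisional entries and orange for an unadjusted p under 0.05. Entries crowd around 0, miR-451 at 2.38, miR-133a-3p at 1.29 and miR-499-5p at 1.08 stand above it at high CPM, and miR-206 lies at -0.51.

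miR-146 gave the smallest unadjusted p of the named entries. miR-146a and miR-146b are induced by NF-κB in mammalian immune cells, where they damp Toll-like receptor signalling. miR-146a-5p had 106 and 82.0 CPM at P1 and 24 and 17.6 CPM at E16, with no overlap, and its log2 fold change was 2.17 (SE 0.48, edgeR adjusted p = 0.224, DESeq2 adjusted p = 0.0413). It was one of the 2 entries that DESeq2 called. The other was a provisional entry, 5_27335, with 1734 and 2050 CPM at P1 and 613 and 574 CPM at E16. Its DESeq2 adjusted p, 5.6e-05, was the smaller of the 2. The other arm, miR-146a-3p, had 41.0 and 26.6 CPM at P1 and 7.19 and 9.29 CPM at E16 (2.03, SE 0.51). miR-146b-5p had 45.3 and 32.8 CPM at P1 and 7.19 and 3.10 CPM at E16, from 9 and 3 counts at E16. Its log2 fold change was 2.87 (SE 0.72), or 3.56 without E16 replicate 1. Of the P1 and E16 libraries only those at P1 reached the filter's level for it. The far more abundant miR-146c-5p had 8477 and 8003 CPM at P1 and 8488 and 8684 CPM at E16 (-0.06, SE 0.42). For miR-146a-5p the log2 fold change lay at 1.89 without P1 replicate 1 and 2.35 without P1 replicate 2.

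Other leukocyte markers did not separate the ages as miR-146a and miR-146b did. The leukocyte list had 6 of 8 tested members above 0, against 158 of 289 over all entries. Its median log2 fold change was 0.94, or -0.05 without P1 replicate 1. The summed level of the leukocyte list was 9493 and 8432 CPM at P1 and 8852 and 8965 CPM at E16, and nearly all of it was miR-146c-5p. miR-223, a miRNA of myeloid cells, had 99.1 and 31.7 CPM at P1 and 56.0 and 26.8 CPM at E16, so the ages overlapped (0.66, or -0.46 without P1 replicate 1). miR-142-5p, found across blood cells, had 657 and 205 CPM at P1 and 209 and 160 CPM at E16, so the ages overlapped (1.23, or 0.08 without P1 replicate 1). miR-155, a miRNA of activated lymphocytes and macrophages, had at most 1 count in each of the 4 libraries. The part of immune cells in the miR-146a and miR-146b values was not tested.

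miR-29, known in mammals to target transcripts of collagens, was low at both ages and higher at P1. miR-29b-3p had 42 and 26 counts at P1 and 3 and 0 counts at E16. Its summed counts, scaled by library size, were 12.3-fold higher at P1, with an exact 95% interval for counting error of 4.04 to 61.1. Of the P1 and E16 libraries only those at P1 reached the filter's level for it. The fold and its interval are therefore conditioned on a high level at P1. All 3 counts at E16 were in replicate 1, and against that library alone the fitted log2 fold change was 2.63, while against replicate 2 alone, which is at 0, it was 7.32, a value that depends on the prior count. miR-29a-3p had 28.4 and 11.9 CPM at P1 and 5.59 and 7.23 CPM at E16, with no overlap (log2 fold change 1.66, SE 0.79). It too reached the filter's level only at P1 among these libraries. miR-29c-3p was listed with 2 counts in each P1 library and at 0 in both E16 libraries, too few to show a difference.

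The miR-23b, miR-27b and miR-24 hairpins lie together in the genome, and miR-27 is known in mouse muscle stem cells to target Pax3. Of 6 listed arms of these and related hairpins, 4 were tested, all 4 log2 fold changes were above 0, and 3 had an unadjusted p under 0.05 (8.65% of all entries in this direction). miR-24-3p had 943 and 738 CPM at P1 and 305 and 309 CPM at E16 (log2 fold change 1.45, SE 0.44). miR-23b-3p had 158 and 161 CPM at P1 and 72.7 and 68.2 CPM at E16 (1.17, SE 0.47). miR-27b-3p had 9439.9 and 14889.9 CPM at P1 and 7111 and 6633 CPM at E16 (0.82, SE 0.34). In each of these 3 the P1 libraries were above the E16 libraries. The rare arm miR-27b-5p had a log2 fold change of 0.24, and its direction turned without P1 replicate 2 (-0.10).

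Most tested members of the miR-30 family, abundant in striated muscle of mammals, were higher at P1, but the family sum overlapped between the ages. Of 8 tested members 7 had a log2 fold change above 0, 6 had both P1 libraries above both E16 libraries (26.3% of all entries), and the median was 0.95. miR-30e-5p had 351 and 229 CPM at P1 and 111 and 131 CPM at E16 (1.26, SE 0.53), and miR-30c-1-3p had 25.4 and 33.4 CPM at P1 and 14.4 and 10.3 CPM at E16 (1.23, SE 0.49). These were the 2 members with an unadjusted p under 0.05 (8.65% of all entries in this direction). miR-30d had 3692 and 3545 CPM at P1 and 1889 and 1564 CPM at E16. miR-30b-5p had 4040.1 and 5386 CPM at P1 and 2619 and 1847 CPM at E16. The most abundant member, miR-30c-5p, overlapped between the ages, with 19111 and 30524 CPM at P1 and 24608 and 14342 CPM at E16. Family members differ by few bases, so the split of reads among them is uncertain. Summed over the family, the level was 32602 and 46729 CPM at P1 and 33346 and 22648 CPM at E16.

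Among other abundant or muscle-linked miRNAs, miR-26a-5p, which in mouse myoblasts targets the histone methyltransferase Ezh2, had a log2 fold change of 1.12, with a 95% interval of -0.02 to 2.27. miR-22-3p, enriched in striated muscle of mice, had 85897 and 83248 CPM at P1 and 56806 and 58188 CPM at E16. Its libraries lay close together within each age and did not overlap, and the log2 fold change was 0.56 (SE 0.28, unadjusted p = 0.0898 in edgeR). The endothelial miRNA miR-126 had 11793 and 15756 CPM of its 3p arm at P1 and 9680.1 and 5436 CPM at E16 (0.87, SE 0.42). Its 5p arm had 45596 and 58423 CPM at P1 and 36799.9 and 31467 CPM at E16 (0.61, SE 0.31). Neither arm overlapped between the ages.

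The other most abundant named miRNAs had log2 fold changes between -0.29 and 0.43 with TMM scaling. miR-148a-3p, known to act in myogenic differentiation in mice, had 76489 and 83106 CPM at P1 and 74647 and 80974 CPM at E16 (0.04, 95% interval -0.63 to 0.71). miR-10b-5p, encoded in a HOX cluster, had 64951 and 61174 CPM at P1 and 60309.6 and 93493 CPM at E16 (-0.29, 95% interval -1.03 to 0.46). miR-181a-5p had a log2 fold change of 0.23 (95% interval -0.79 to 1.25), miR-10a-5p of 0.43 (-1.43 to 2.30) and let-7f-5p of -0.07 (-1.10 to 0.95). These intervals do not show that levels were equal. For miR-10a-5p both P1 libraries, at 30554 and 31707 CPM, were above both E16 libraries, at 30108 and 15951 CPM. The lower P1 value was near the higher E16 value. As shares of all counts the ages overlapped, with 70876 of 2641042 and 56094 of 2201359 at P1. At E16 these were 37672 of 1202481 and 15447 of 948589. The let-7 family, a regulator of developmental timing, had 14 tested members with a median of 0.08, of which 2 were above and 3 below in both libraries (26.3% and 24.9% of all entries). The let-7 median was -0.22 in edgeR scaled to plain totals. As a share of all counts, let-7 took 3.93% and 4.46% at P1 and 5.20% and 5.11% at E16. Both arms of miR-148a together took 6.78% and 6.75% at P1 and 7.91% and 8.50% at E16. On this measure both were lower at P1 without overlap.

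**Figure D4:**
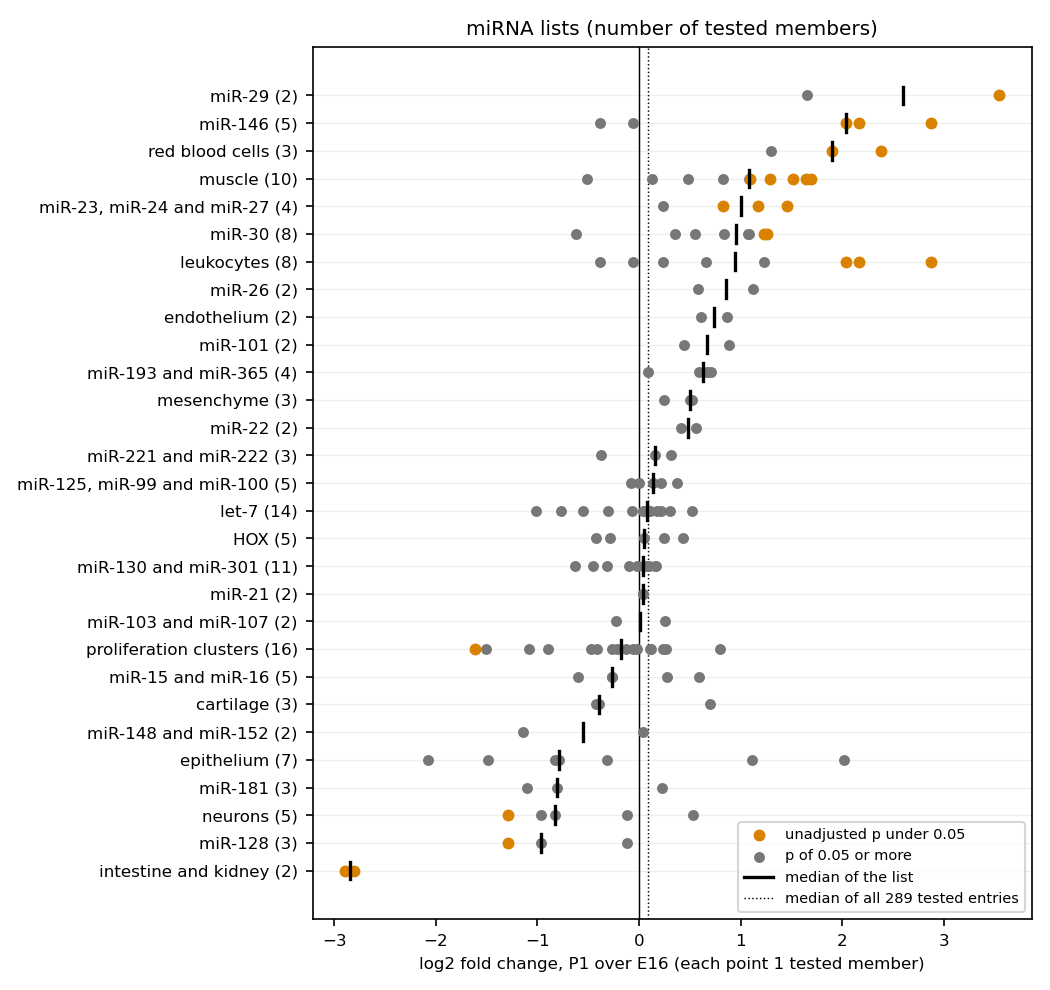
log2 fold change of P1 over E16 for each tested member of the miRNA lists with at least 2 tested members, 1 point per member, with lists down the page. Points of the muscle list reach from -0.51 to 1.69, and those of the intestine and kidney list lie at or below -2.80. Points of the epithelium list are the most widely spread.

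Red blood cell miRNAs had higher means at P1, by an amount that rested on 1 library. miR-451, which with miR-144 accumulates in erythroid cells, had 32080.4 and 6939 CPM at P1 and 5130.2 and 2387 CPM at E16 (log2 fold change 2.38, SE 0.72). For miR-451 the ages did not overlap, and without P1 replicate 1 the value was 0.81. miR-144-5p had 328 and 117 CPM at P1 and 71.9 and 47.5 CPM at E16 (1.89, SE 0.70), or 0.89 without P1 replicate 1. miR-144-3p had 2336 and 683 CPM at P1 and 865 and 361 CPM at E16, so the ages overlapped, and its log2 fold change of 1.30 was 0.09 without P1 replicate 1. The whole list of 3 members summed to 34745 and 7739 CPM at P1 and 6067 and 2796 CPM at E16. As shares of all counts the ages overlapped for this list, with 3.05% and 0.622% at P1 and 0.631% and 0.285% at E16. miR-2188-5p showed the same order of libraries, with 3369 and 807 CPM at P1 and 632 and 534 CPM at E16 (1.84, or 0.39 without P1 replicate 1). miR-383-5p, the remaining named miRNA with an unadjusted p under 0.05 and a value above 0, had 44.4 and 63.3 CPM at P1 and 11 and 23.8 CPM at E16 (1.63, SE 0.61). The share of counts of the muscle list was 6.30 percentage points higher at P1 after the red blood cell and epithelial lists were left out, against 6.09 points with them.

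miRNAs of liver, intestine and kidney had the lowest log2 fold changes of the named miRNAs. miR-215-5p, found in intestine, kidney and liver, had 31.9 and 36.7 CPM at P1 and 261 and 220 CPM at E16. The 2 libraries of each age lay close together and far from those of the other age, and the log2 fold change was -2.80 (SE 1.05, edgeR adjusted p = 0.343). Its genomic neighbour miR-194 had 3.02 and 2.83 CPM at P1 and 28.0 and 16.5 CPM at E16 (-2.89, SE 0.67). miR-122-5p, the liver miRNA, had 4.31 and 3.96 CPM at P1 and 30.4 and 23.8 CPM at E16 (-2.68, SE 1.00). miR-122-3p was listed with 2 counts in each E16 library and at 0 in both P1 libraries, too few to show a difference. These miRNAs were also uneven at E11, where miR-215-5p had 353 and 28.8 CPM. Which cells they came from was not tested.

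Other named miRNAs that were lower at P1 with an unadjusted p under 0.05 were rare. miR-1737 had 8.19 and 8.48 CPM at P1 and 26.4 and 28.9 CPM at E16 (-1.72, SE 0.49). miR-1736-3p had 5.17 and 5.09 CPM at P1 and 23.2 and 11.4 CPM at E16 (-1.74, SE 0.59). miR-6631-5p had 6.04 and 0.57 CPM at P1 and 11 and 29.9 CPM at E16 (-2.52, SE 0.92), and its value was -4.97 without P1 replicate 1 and -1.74 without P1 replicate 2 or without E16 replicate 2. The remaining 4, miR-19a-5p, miR-1720-3p, miR-1467-5p and miR-128-2-5p, had log2 fold changes between -1.83 and -1.28 and at most 29 counts in a library. For miR-1720-3p the value was -2.54 without P1 replicate 1.

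Among named miRNAs with a mean of at least 100 CPM, 51 of 100 did not overlap between the ages, 36 higher and 15 lower at P1. Over all 289 entries 26.3% were higher and 24.9% lower in this way. After miR-215-5p, the lowest were miR-148a-5p (-1.15, SE 0.49) and miR-181b-5p, with 1179 and 1469 CPM at P1 and 2832 and 2861 CPM at E16 (-1.10, SE 0.56). miR-92-3p, a member of the miR-17-92 cluster that promotes cell proliferation in mammals, had 544 and 531 CPM at P1 and 1052 and 944 CPM at E16 (-0.89, SE 0.39). miR-181a-3p had 774 and 1274 CPM at P1 and 1861 and 1734 CPM at E16 (-0.81, SE 0.38). miR-1662, miR-30a-3p, miR-15c-5p, miR-20b-5p and miR-455-5p followed, with values between -0.64 and -0.39. None of these had an unadjusted p under 0.05 apart from miR-215-5p.

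The list of proliferation-linked clusters (miR-17, miR-18, miR-19, miR-20, miR-92 and miR-106) was spread around 0. Of 16 tested members 5 had a log2 fold change above 0 and 11 below, none had both P1 libraries above both E16 libraries, and 5 had both below (24.9% of all entries). The median was -0.17, and the abundant members were near 0, as for miR-19b-3p (-0.12) and miR-17-5p (-0.22). In the cluster of miR-106, miR-18b and miR-20b all 5 tested arms were below 0, from -1.51 to -0.02. Of these, 2 had both P1 libraries below both E16 libraries (24.9% of all entries). The miR-128 list, a family abundant in neurons of mammals, had 3 of 3 members below 0, from -1.28 to -0.12. The whole list of neuronal miRNAs, which includes miR-128 and miR-9, had 5 tested members. Of these 1 was above 0 and 4 were below, from -1.28 to 0.53. The neuronal miRNA miR-124a-3p was listed with 6 and 0 counts at P1 and 4 and 0 counts at E16.

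The summed level of the epithelial markers varied more within an age than between the ages. Their sum was 1135 and 38.4 CPM at P1 and 429 and 155 CPM at E16, mostly miR-203a. Of 7 tested members 2 had a log2 fold change above 0 and 5 below, with a median of -0.79. None had both P1 libraries above both E16 libraries (26.3% of all entries), and 3 had both below (24.9% of all entries). miR-205a had 43.5 and 3.39 CPM at P1 and 83.1 and 49.6 CPM at E16, and miR-205b had 59.5 and 23.2 CPM at P1 and 84.7 and 62.0 CPM at E16. Both had P1 below E16, with log2 fold changes of -1.48 and -0.82 and an unadjusted p of 0.164 for miR-205a and 0.163 for miR-205b in edgeR. Without P1 replicate 1 these were -4.32 and -1.74, and without P1 replicate 2 they were -0.60 and -0.30. The log2 fold change of miR-203a was 2.01 with all libraries, 3.02 when P1 replicate 2 was left out and -3.98 when P1 replicate 1 was. miR-429-5p was at 0 in all 4 libraries. At both P1 and E16 the library numbered 1 had the higher epithelial and red blood cell sums.

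Named miRNAs that are neighbours in the RefSeq annotation of the chicken genome were grouped to see whether they moved together. Of 199 named tested entries 184 matched the annotation, and they formed 24 clusters with at least 2 hairpins, some of which share a member. In 11 of the 24 every mature RNA had the same sign. Over all tested entries 158 of 289 were above 0, and several clusters held only 2 mature RNAs. Shared signs alone therefore do not show that neighbours moved together. Those with every value above 0 included miR-29a with miR-29b, miR-144 with miR-451, miR-1a with miR-133a, miR-30b with miR-30d, and miR-23b with miR-27b and miR-24. Those with every value below 0 included miR-194 with miR-215, and miR-15c with miR-16c. miR-133b and miR-206 lay on opposite sides of 0. Arms of 1 hairpin and members of 1 cluster share a transcript and are not independent.

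The share of the less abundant arm differed between the ages in some hairpins. The number of hairpins with a lower share was close to that between libraries of 1 age, while the median shift was larger. That difference in medians was not tested. For 38 hairpins with at least 10 counts of the minor arm in each of the 4 libraries, the minor arm's share of both arms was lower at P1 in 25 and higher in 13. Between libraries of 1 age the same count was 24 against 14 for P1 replicate 1 set against replicate 2, and 26 against 12 for E16 replicate 1 set against replicate 2. Both P1 libraries were below both E16 libraries in 16 hairpins and above in 4. For levels of all entries, 24.9% were below and 26.3% above in this way. The median log2 shift of the minor arm was -0.30. The same measure between the P1 libraries had a median of -0.16 and between the E16 libraries -0.14 over the same hairpins. With at least 50 counts of the minor arm, 8 hairpins were lower at P1 and 5 higher, with a median of -0.16. In miR-30a the 3p arm took 15.2% and 16% at P1 and 31.9% and 35.8% at E16. In miR-148a the 5p arm took 0.98% and 1.08% at P1 and 1.86% and 2.71% at E16. In miR-181a the 3p arm took 1.41% and 1.82% at P1 and 3.31% and 3.32% at E16. In these 3 hairpins the ages did not overlap, and arm shares do not depend on library scaling.

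The same held for miR-133a, whose 5p arm took 1.74% and 2.07% at P1 and 3.14% and 3.67% at E16, so the dominant 3p arm was further ahead at P1. miR-18b-3p took 2.28% and 3.27% at P1 and 6.94% and 8.0% at E16. In the opposite direction, miR-1306-3p took 57.5% and 54.0% at P1 and 40.0% and 38.3% at E16, from 16 to 34 counts, and was the one hairpin whose dominant arm differed between the ages. Over the 77 hairpins with at least 10 counts for both arms together, 36 had ratios that did not overlap. The ratio of 5p to 3p was higher at P1 in 24 of them and lower in 12. For levels of all 289 entries, 26.3% were higher and 24.9% lower in this way, so the number of such hairpins does not stand out. The 5 largest shifts among them, of miR-133c, miR-1559, miR-140, miR-23b and miR-19a, rested on at most 8 counts of the minor arm in a library.

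**Figure D5:**
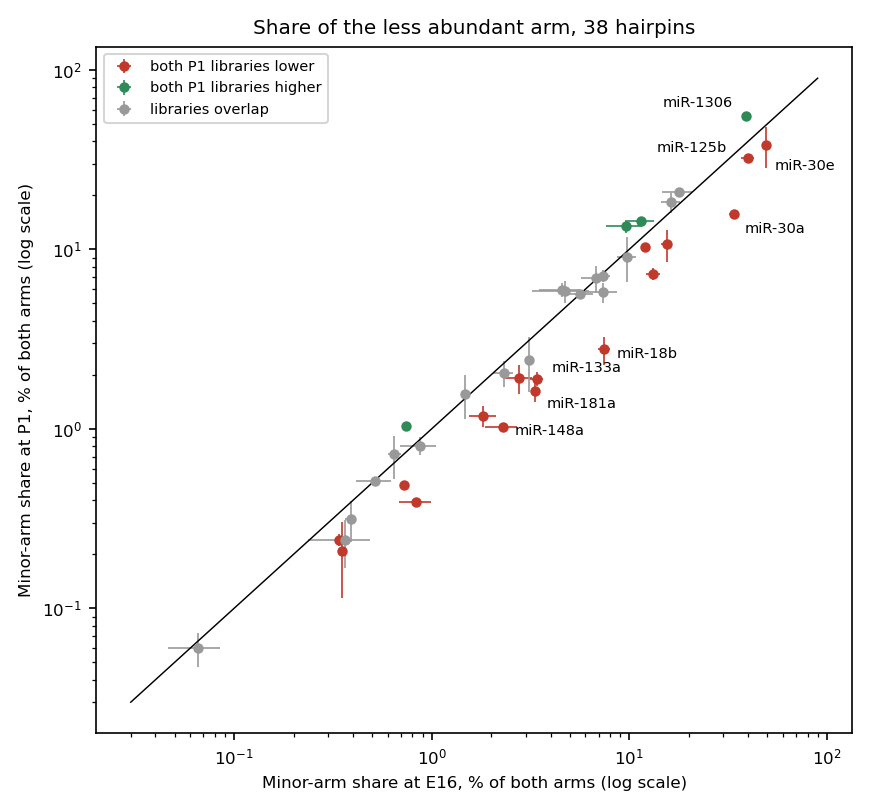
Share of the less abundant arm in the counts of both arms for 38 hairpins, in percent on log axes, with P1 on the vertical axis and E16 on the horizontal axis. Each point is the mean of 2 libraries, its bars reach to the lower and the higher library, and 25 of the 38 points lie below the diagonal, against 24 and 26 when libraries of 1 age are set against each other, with miR-30a, miR-148a, miR-181a and miR-18b among the farthest below it.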

How the data were processed

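Small RNA of leg muscle was sequenced at P1, E16 and E11, with 2 samples of each age. The deposited values were used as counts per miRNA: all were whole numbers with differing totals, although the column is headed FPKM per the file headers. If the header is right, a count test would be unsuitable, which the limma-trend alternative addresses only in part. Its filter and its scaling to library totals still took the values as counts. A miRNA missing from a deposited file was given 0. Per the submitters' processing notes, the tools were Trim Galore, Bowtie, TopHat and Cufflinks and the build galGal4, with no roles or versions. Which program counted miRNAs is not stated there or in the labels.

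Counts were filtered with filterByExpr (minimum count 10, minimum total 15), scaled by TMM and fitted with edgeR 4.0.16 in R 4.3.3, with 1 coefficient per age, 3 residual degrees of freedom and a two-sided quasi-likelihood F-test. Adjustment was by Benjamini-Hochberg over 289 entries, with a threshold of 0.05. The biological coefficient of variation was 0.47. Alternatives were DESeq2 1.42.0, limma 3.58.1 on log2 CPM with a pseudocount of 1, RLE scaling, plain library totals, no filter, thinning to 948589 counts, merged duplicate entries, the 4 libraries alone, a replicate block and fits without each library. The exact interval of the miR-29b-3p ratio covers counting error only, and reads without molecular identifiers are not independent molecules. Intervals of log2 fold changes come from the edgeR fit and include the spread between libraries.

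The chi-square between replicates, divided by its degrees of freedom, was 489 at P1 and 171 at E16, so no library was a copy of another and each was kept. Counts of miR-181a-5p, miR-125b-5p, let-7a-5p with let-7j-5p, miR-146c-5p, miR-10b-5p, miR-17-3p and miR-31-5p were nearly equal to those of a provisional entry, so the same reads may have been listed under both.

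Members and lists were chosen with earlier results of these data known. The text names miRNAs with an unadjusted p under 0.05, the 10 most abundant, the 10 highest and 10 lowest non-overlapping ones of at least 100 CPM, the muscle list, up to 4 abundant members per list and the 5 largest arm shifts. Other miRNAs and the provisional entry were named after their values were seen. Neighbours come from RefSeq's annotation of GRCg7b, whose coordinates are not printed.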

Additional observations from a re-analysis of the deposited data

How the results depend on the processing

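Where edgeR called no entry at an adjusted p under 0.05, DESeq2 called 2, the fit with no filter on low counts called 13 of 846 (9 higher and 4 lower at P1), and fits without 1 library called 0 to 1. The count at an unadjusted p under 0.05 was 37, 68 with no filter and 14 to 46 without 1 library, the lowest without E16 replicate 2 and 21 without E16 replicate 1. With the replicate block edgeR called 0 and 28 had an unadjusted p under 0.05; with the block in the P1 and E16 libraries alone it called 2, both lower at P1. The labels give the replicate numbers no meaning, and deviations of same-numbered P1 and E16 libraries correlated at r = 0.33 over 289 entries, P1 and E11 libraries at -0.03 and E16 and E11 libraries at -0.02. The muscle share difference of 6.09 points lay between 4.44 and 7.75 without 1 library and was 8.37 of named counts. Non-overlapping arm ratios numbered 36 of 77 hairpins, 54 to 61 without 1 library, where 1 library cannot spread, 20 with at least 10 counts of the minor arm and 7 with at least 50.

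Of 68 miRNAs followed through up to 17 alternatives, 10 turned direction at least once. None of them was among the 29 with an unadjusted p under 0.05, which were picked in the main fit and lay away from 0 there. Without 1 library the log2 fold change ranged from -3.98 to 3.69 for miR-203a, -0.29 to 0.91 for miR-133a-5p, -0.46 to 1.26 for miR-223, -0.12 to 0.72 for miR-30c-5p, -0.065 to 0.90 for miR-10a-5p, -0.10 to 0.43 for miR-27b-5p, -0.092 to 0.22 for miR-1a-1-5p, -0.30 to 0.041 for let-7f-5p and -0.088 to 0.022 for miR-148a-3p. With limma-trend it was -0.20 for miR-203a, -0.076 for miR-181a-5p, -0.087 for miR-27b-5p, -0.16 for miR-1a-1-5p and -0.26 for miR-148a-3p. In edgeR scaled to plain totals it was -0.074 for miR-181a-5p, -0.071 for miR-27b-5p, -0.17 for miR-1a-1-5p and -0.26 for miR-148a-3p. For miR-148a-3p it was -0.018 in the P1 and E16 libraries alone, and -0.015 both with the block there and with the P1 numbers crossed. The causes were not tested. The test of families sharing a seed was not run, since no mature sequences were used here. Totals were lower at E16, which limits rare miRNAs there.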
